A study of Mus musculus with 2 samples.

Results

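The genes described here encode the proteins that carry RNA polymerase II through the body of a gene. They are Supt5 (SPT5), Supt6 (SPT6), Supt16 and Ssrp1 (the subunits of FACT), Paf1, Ctr9, Rtf1, Cdc73 and Leo1 (subunits of the PAF1 complex) and Cdk9 (the kinase of P-TEFb). These 10 genes were chosen by name from 21911 protein-coding genes of the GENCODE M21 annotation on mm10, by a rule that uses no measured value, though with earlier results of these data known. The measurement was chromatin immunoprecipitation and sequencing (ChIP-seq) of histone H3 trimethylated at lysine 36 (H3K36me3). The cells were E14TG2a.4, mouse embryonic stem cells from a male of strain 129/Ola, labelled as embryonic with an age of 3.5 days. There was 1 group of 2 biological replicates, each from its own biosample, and the labels name no treatment, no genetic change and no other condition. All values below describe that group: no test between conditions exists, and each SD is over n = 2 replicates.

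H3K36me3 is laid down during transcription by SETD2, a methyltransferase that travels with the elongating polymerase, so the mark is known to lie over the bodies of transcribed genes and to be scarce at their starts. The factors act on the same polymerase. P-TEFb phosphorylates the polymerase and SPT5 and releases it from its pause near the promoter, SPT5 keeps the enzyme processive, and the PAF1 complex travels with it and aids histone modification. SPT6 and FACT are histone chaperones that take nucleosomes apart ahead of the polymerase and rebuild them behind it.

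The 200 bases upstream of each start were examined because the mark is compared with the start throughout. The sequences of 5 members and of the interval between a pair of starts are shown as examples of their base composition and motif matches. They are reference sequence from RefSeq, GRCm38.p6 (the assembly that mm10 names), read 5′ to 3′ on the strand of the gene, with each match to a searched motif in capitals. The motifs were TATAAA (the TATA box), CCAAT (known to be bound by NF-Y), GGCGGG (by SP factors), CCGGAAG (by ETS factors), TGACGTCA (by CREB), GCATGCGC (part of the NRF1 site) and ATGGCGGC (by YY1), each searched on both strands, so a match on the other strand appears as its reverse complement.
Supt5 upstream, chr7:28338747-28338946, minus strand: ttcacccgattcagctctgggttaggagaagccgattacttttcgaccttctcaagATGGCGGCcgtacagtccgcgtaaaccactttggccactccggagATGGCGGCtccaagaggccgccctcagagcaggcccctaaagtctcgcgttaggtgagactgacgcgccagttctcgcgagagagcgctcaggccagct
Cdk9 upstream, chr2:32713077-32713276, minus strand: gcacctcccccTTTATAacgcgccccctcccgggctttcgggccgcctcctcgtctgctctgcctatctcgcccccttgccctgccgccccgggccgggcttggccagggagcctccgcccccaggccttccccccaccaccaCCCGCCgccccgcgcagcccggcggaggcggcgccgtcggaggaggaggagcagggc
Cdc73 upstream, chr1:143702894-143703093, minus strand: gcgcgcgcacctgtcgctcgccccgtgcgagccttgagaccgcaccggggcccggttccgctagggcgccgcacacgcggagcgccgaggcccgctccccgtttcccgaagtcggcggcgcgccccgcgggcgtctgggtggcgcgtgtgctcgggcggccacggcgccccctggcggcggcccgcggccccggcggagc
Ctr9 upstream, chr7:111028751-111028950, plus strand: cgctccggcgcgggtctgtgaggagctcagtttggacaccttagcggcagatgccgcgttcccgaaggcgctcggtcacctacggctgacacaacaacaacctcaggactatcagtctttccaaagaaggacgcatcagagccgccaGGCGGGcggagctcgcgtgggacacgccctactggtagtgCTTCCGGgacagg
Rtf1 upstream, chr2:119674868-119675067, plus strand: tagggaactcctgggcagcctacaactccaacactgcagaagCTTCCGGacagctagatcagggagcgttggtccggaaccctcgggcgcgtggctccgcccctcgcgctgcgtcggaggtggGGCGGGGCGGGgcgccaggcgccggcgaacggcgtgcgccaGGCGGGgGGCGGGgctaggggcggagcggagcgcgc
Interval between the starts of Paf1 and Med29, chr7:28392709-28392950, shown on the plus strand: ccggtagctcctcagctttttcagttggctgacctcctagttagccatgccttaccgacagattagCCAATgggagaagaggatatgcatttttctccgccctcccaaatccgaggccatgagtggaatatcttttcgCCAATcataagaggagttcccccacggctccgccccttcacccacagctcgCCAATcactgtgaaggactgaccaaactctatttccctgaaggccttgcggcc

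No base of any of the 10 upstream windows lay in a peak in either replicate. Peaks were also absent within 500 bp of the start in 95.6% of the genes of at least 3 kb that are called marked below. The windows held between 8 (Paf1) and 39 (Cdc73) CpG dinucleotides, with a median of 19.0, against a median of 7.0 over the windows of 21906 coding genes. Their GC content ran from 53.5% to 82.5% with a median of 62.5%, against 55.0% over all of them. GGCGGG was found in 6 members (Supt16, Ssrp1, Ctr9, Rtf1, Leo1 and Cdk9) and in 36.8% of all coding genes, and CCGGAAG in 3 members (Ssrp1, Ctr9 and Rtf1) and in 7.41%. ATGGCGGC was found only in Supt5 among the members and in 0.826% of all coding genes, TATAAA only in Cdk9 and in 9.29%, and CCAAT only in Paf1 and in 31.7%. The TATAAA match of Cdk9 was on the other strand and near the upstream end of the window. Position within the window was not used in the search, so a match is not evidence of a working site. Neither TGACGTCA (1.86% of all) nor GCATGCGC (2.91% of all) was found in a member. The windows of Supt6, Ssrp1 and Paf1 lie beside or within a divergent coding gene whose start is within 1 kb, an arrangement found in 3 of 10 members and in 10.8% of all coding genes. The partner of Supt6 is Sdf2, a protein of the endoplasmic reticulum, that of Ssrp1 is P2rx3, an ATP-gated channel of sensory neurons, and that of Paf1 is Med29, a Mediator subunit. Sdf2 overlaps Supt6 by 242 bp and P2rx3 overlaps Ssrp1 by 229 bp, while the starts of Paf1 and Med29 are separated by the interval of 242 bp printed above.

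All 10 elongation factor genes carried H3K36me3 in both replicates. A gene is called marked here when peaks cover at least 10% of the bases of its body (the covered share) in each replicate, which held for 37.2% of the 21911 coding genes. Peaks covered at least 50% of the body in each replicate in 8 of the 10 members, compared with 19.3% of all coding genes, and the exceptions were Rtf1 and Cdc73. The covered share of the median member was 80.7% in replicate 1 and 77.4% in replicate 2, whereas the median marked gene was covered to 57.1% and 52.9%, and the median coding gene had no covered base. The fold enrichment of the authors' peaks, averaged over the body with uncovered bases counted as 0, had a median of 7.68 and 9.91 over the members and of 3.55 and 4.11 over the 8155 marked genes. The sequencing depth behind these values is unknown, and fold values differ in level between the replicates.

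**Figure D1:**
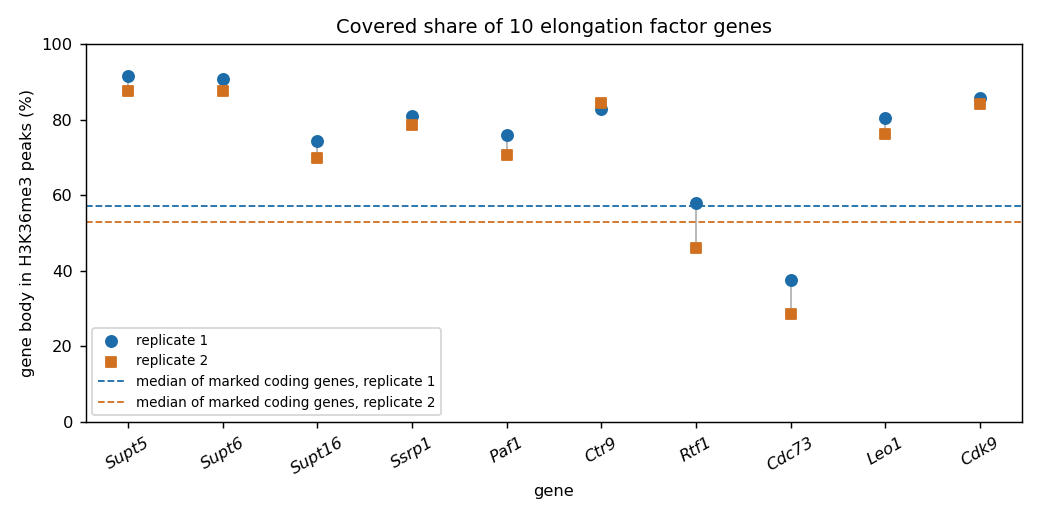
Covered share (percent of gene-body bases in H3K36me3 peaks, vertical axis from 0) of the 10 elongation factor genes, with replicate 1 as circles and replicate 2 as squares joined by a line. Dashed lines give the median of the marked coding genes in each replicate, 57.1% and 52.9%, and 8 genes lie above both lines while Rtf1 lies across them and Cdc73 below.

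By the mean of the replicates the genes rank as Supt5, Supt6, Cdk9, Ctr9, Ssrp1, Leo1, Paf1, Supt16, Rtf1 and Cdc73. The replicate ranges of Supt5 and Supt6 overlap, as do those of Cdk9 and Ctr9, of Ssrp1 and Leo1, and of Paf1 and Supt16, so the order within each of these pairs is within the spread. Rtf1 and Cdc73 are separated from all the others and from each other. They are also the longest members, at 60.3 and 104.1 kb, while the others span 6.44 to 39.2 kb. Covered share was higher in replicate 1 in 9 members and in replicate 2 in 1, Ctr9. The difference was 11.8 points for Rtf1 and 8.97 points for Cdc73, and between 1.41 and 5.36 points in size for the others. In all, replicate 1 had 107779 peaks over 139 Mb and replicate 2 had 98185 peaks over 127 Mb. How far this bears on the differences was not tested.

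The labelled cell type was checked on marker genes. All 8 embryonic stem cell genes looked at (Pou5f1, Sox2, Nanog, Zfp42, Esrrb, Klf4, Tdgf1 and Fgf4) were marked, at 15.4% to 81.6%. None of 8 fibroblast genes (Col1a1, Col1a2, Col3a1, Thy1, Pdgfrb, Lum, Dcn and Postn), which feeder cells would carry, had any covered base. Of all coding genes 37.2% were marked and the median gene had no covered base, so a bare gene is common. Peak calls also cannot tell weak from missing signal, so they could not show a small share of feeder cells.

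Cdk9 (ENSMUSG00000009555.16, chr2:32705784-32713076, minus strand, 7.29 kb) encodes the kinase that frees paused polymerase. Its covered share was 85.6% in replicate 1 and 84.2% in replicate 2 (mean 84.9% ± 0.999), the smallest difference among the members. A single peak of 8.90 kb held all of its covered bases in replicate 1, and 2 peaks with a gap of 81 bp between them did so in replicate 2. Coverage began 1.05 and 1.07 kb from the start, the shortest distance of any member, within intron 2. Exons 1 and 2 of its 7 exons were bare, and everything from exon 3 to the last exon was covered, apart from the gap in intron 6 in replicate 2. Its fold over the body, 10.9 and 15.3, was the highest of the members in replicate 1 and came after that of Supt5 (15.5) in replicate 2. The peaks ran on past the end of the gene, where 86.3% and 71.5% of the next 5 kb was covered, but 67.2% of those bases belong to Fpgs, a folate enzyme gene on the same strand that begins 1638 bp beyond the end of Cdk9 and was itself covered to 55.4% and 51.8%.

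Supt5 (ENSMUSG00000003435.9, chr7:28314891-28338746, minus strand, 23.9 kb) encodes the large subunit of DSIF, the factor that P-TEFb converts from a pausing to a processive form. It was covered to 91.4% and 87.5% (mean 89.5% ± 2.77), more than 93.9% of marked genes when the lower replicate of each gene is compared. No other coding gene overlaps it. The last 5 of 10 equal parts were wholly covered in both replicates, and the gaps lay before them. Intron 2, of 6.82 kb, was covered to 78.2% and 63.2%. The widest gap was 0.268 kb in replicate 1 and 1.01 kb in replicate 2. These gaps are rich in repeats: bases that RefSeq soft-masks as repeats made up 86.4% and 86.0% of them and 25.9% and 23.2% of the covered bases. Repeats are places where short reads may not map uniquely, and whether this bears on the gaps was not tested. Its strongest peak reached a fold of 12.4 (replicate 1) and 21.5 (replicate 2).

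Supt6 (ENSMUSG00000002052.6, chr11:78206746-78245987, minus strand, 39.2 kb), the histone chaperone that binds the polymerase directly, was covered to 90.8% and 87.4% (mean 89.1% ± 2.35). Supt6 is longer than every member except Rtf1 and Cdc73, so high coverage was not limited to short genes. All 35 internal exons were covered over every base in both replicates. The uncovered bases lay mainly in intron 1, of 11.9 kb, which was covered to 73.6% and 63.4%. From about intron 2 onwards the gene was a near unbroken block, with a widest single peak of 16.7 kb in replicate 1 and 19.1 kb in replicate 2. The gaps were again mostly soft-masked sequence, at 80.5% and 72.4%, against 24.2% and 23.1% of the covered bases. Just outside the start, 15.3% and 19.3% of the 5 kb upstream was covered, all of which lies in the divergent gene Sdf2. Joined at gaps of up to 3 kb, the peaks of Supt6 formed a domain of 41.4 kb and 41.7 kb, which at its 3′ end reached into Proca1.

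The FACT subunits were both marked over most of the gene, with a thinly covered 5′ part. Supt16 (ENSMUSG00000035726.8, chr14:52160414-52197416, minus strand, 37.0 kb), the larger subunit, was covered to 74.3% and 69.9% (mean 72.1% ± 3.13). Coverage began 1.89 and 3.04 kb from the start, 5.11% and 8.22% of the body, and stayed sparse at first: intron 1, of 13.1 kb, was covered to 47.2% and 31.1%, and the widest gap of 1.58 and 2.69 kb lay within it. By contrast 23 of 24 internal exons were covered over every base in both replicates. A second sparse stretch lay in intron 22, of 6.28 kb, which was covered to 66.6% and 73.0%. Opposite the 3′ end lies Rpgrip1, a photoreceptor gene on the other strand, which shares 3133 bp (8.47%) with Supt16. With bases shared with another coding gene left out, Supt16 was covered to 69.5%.

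Ssrp1 (ENSMUSG00000027067.16, chr2:85037234-85047109, plus strand, 9.88 kb), the subunit with the HMG box, was covered to 81.0% and 78.6% (mean 79.8% ± 1.66). Its exons 1, 2 and 3 were bare in both replicates. The mark began in intron 3, covered to 62.8% and 39.5%, and from exon 4 to exon 17 all bases were covered, apart from a break in intron 13 in replicate 1. Coverage thus started at 1.46 and 2.11 kb, which is 14.8% and 21.4% of the body. P2rx3, whose start overlaps that of Ssrp1, was bare in both replicates. Downstream, Tnks1bp1 begins 912 bp beyond the end of Ssrp1 and was covered to 51.5% and 50.6%.

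The subunits of the PAF1 complex ranged from 33.0% (Cdc73) to 83.7% (Ctr9) in mean covered share. Paf1 (ENSMUSG00000003437.14, chr7:28392951-28399388, plus strand, 6.44 kb), the namesake and the shortest member, was covered to 76.0% and 70.7% (mean 73.3% ± 3.79). Coverage began at 1.49 and 1.61 kb in intron 2, and because the gene is short this left 23.1% and 24.9% of it uncovered at the 5′ end. The rest was covered with 1 gap in each replicate, of 55 and 284 bp. Paf1 sat in a domain that did not end with it: the 5 kb downstream was wholly covered in both replicates, and 97.3% of it belongs to Samd4b, which ends 133 bp from Paf1 on the opposite strand. The joined domain was 39.7 and 39.8 kb long, although Samd4b as a whole was covered to only 33.3% and 30.5%.

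Ctr9 (ENSMUSG00000005609.16, chr7:111028951-111056377, plus strand, 27.4 kb), the scaffold subunit, was covered to 82.9% and 84.5% (mean 83.7% ± 1.12). It has no other coding gene in its body or within 5 kb, so its edges can be read alone. Coverage began 2.198 and 2.22 kb from the start in intron 2. It stopped soon after the end, with 4.18% and 2.56% of the downstream 5 kb covered. Inside the gene the widest gap recurred at the same place, from 19.9 to 20.9 kb from the start, and was 1.05 kb wide in replicate 1 and 0.972 kb in replicate 2. This gap took in exons 17 and 18 (117 and 146 bp) with the intron between them, none of which had a covered base in either replicate, while the other internal exons from exon 3 on were wholly covered in both. Whether reads can be placed uniquely in this gap was not tested.

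Leo1 (ENSMUSG00000042487.6, chr9:75441524-75466432, plus strand, 24.9 kb), which binds Paf1 within the complex, was covered to 80.5% and 76.2% (mean 78.4% ± 3.02). All 10 internal exons were covered over every base in both replicates. Intron 1, of 3.60 kb, was covered to 23.8% and 21.1%, and the last intron, of 5.09 kb, to 74.5% and 63.9%. The mark ran on past the annotated end, with 48.6% and 45.3% of the 5 kb downstream covered. No coding gene lies in that flank, whereas in Ctr9, Rtf1 and Cdc73, whose downstream flanks are likewise free of coding genes, at most 12.3% was covered.

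Rtf1 (ENSMUSG00000027304.9, chr2:119675068-119735407, plus strand, 60.3 kb), the subunit that stimulates ubiquitination of histone H2B, was covered to 58.0% and 46.2% (mean 52.1% ± 8.33). It was marked in short stretches: 35 peaks in replicate 1 and 33 in replicate 2, none wider than 3.92 kb. Of the bases covered in either replicate, 64.9% were covered in both, compared with 85.1% to 98.4% for the members other than Rtf1 and Cdc73. The first introns were the thin part. Introns 1 to 4 were covered to 34.4%, 49.2%, 56.1% and 24.3% in replicate 1 and to 23.3%, 25.1%, 24.1% and 13.0% in replicate 2. Exons 3 and 4, of 148 and 205 bp, lie between these introns and were covered over every base in both replicates. Exon 2 was wholly covered in replicate 1 and uncovered in replicate 2. The last part of the gene was dense, with 84.5% and 81.5% covered in the 3′ part when the body is divided into 3 equal parts.

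Cdc73 (ENSMUSG00000026361.9, chr1:143598800-143702893, minus strand, 104.1 kb) encodes parafibromin, the subunit lost in a hereditary form of parathyroid tumour. It was covered to 37.5% and 28.6% (mean 33.0% ± 6.35), the lowest of the members. By the lower replicate of each gene this was more than 23.9% of marked genes. Its distribution ran against that of the other 9. Dividing the body evenly in 3, coverage was 67.0% and 60.0% at the 5′ side, 18.6% and 8.77% in the middle and 27.0% and 16.9% at the 3′ side. Exons 4, 5, 6 and 9 were covered over every base in both replicates, and intron 3, of 3.92 kb, to 81.7% and 81.3%. Intron 10, of 32.5 kb, was covered to 18.3% and 9.36%. A gap without a covered base, of 22.6 kb in replicate 1 and 18.3 kb in replicate 2, began inside this intron and ran past its end. Both gaps began 52.8 kb from the start. A second covered stretch appeared around exons 14 and 15, which were wholly covered in both replicates. The mark ended 9.50 and 9.52 kb before the end of the gene, so that the last exon, of 9.76 kb, was covered to 2.68% and 2.43%. Cdc73 was the only member whose end window (500 bp to either side of the annotated end) had no covered base.

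A gene lies inside Cdc73 on the opposite strand. B3galt2, a galactosyltransferase gene of 13.95 kb, sits in intron 10 at 48.3 to 62.2 kb from the start of Cdc73, was covered to 14.4% and 9.88% and was not marked. Outside it, Cdc73 was covered to 41.1% and 31.4%. The sparse middle was not the B3galt2 segment alone, since the stretch without peaks began within it and ran on to 75.4 kb from the start in replicate 1 and 71.1 kb in replicate 2. Soft-masked bases made up 26.5% of the covered bases of Cdc73 and 29.9% of its gaps in replicate 1, and 27.6% and 28.7% in replicate 2. GC content was 39.3% against 33.7% and 39.7% against 34.4%. Over all 10 members together, soft-masked bases made up 24.9% and 24.8% of covered bases and 38.3% and 35.7% of gaps, and GC content was 44.4% and 45.0% in covered bases and 36.6% and 37.1% in gaps. Cdc73 held 53373 of the 91448 gap bases but 39061 of the 220873 covered bases in replicate 1. In replicate 2 it held 60700 of 106056 and 29719 of 199236. The pooled values therefore mix differences between genes with differences within them. How far base composition bears on where peaks were called was not tested.

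**Figure D2:**
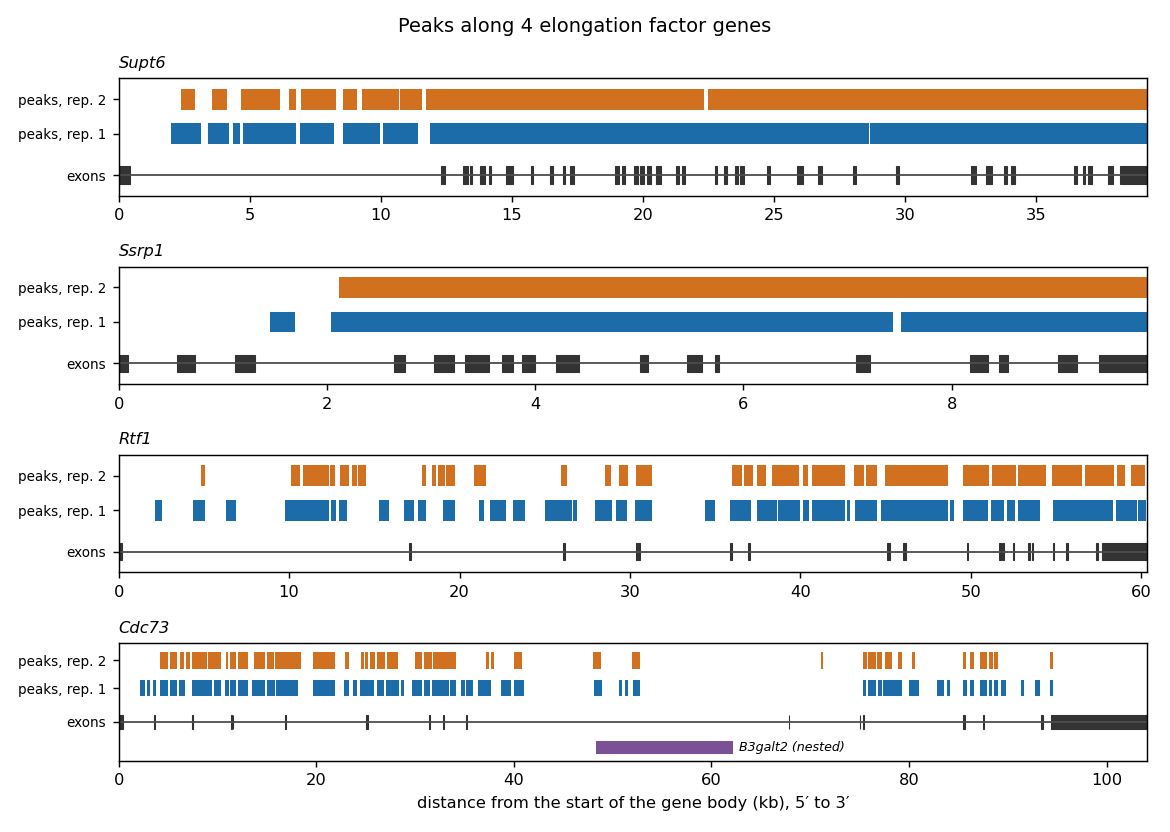
Peaks of replicate 1 and replicate 2 along Supt6, Ssrp1, Rtf1 and Cdc73, with distance from the start of the gene body in kb on the horizontal axis (each gene on its own scale) and exons as dark boxes. Supt6 and Ssrp1 are nearly unbroken after their first part, Rtf1 is broken into 35 and 33 peaks and fills towards its 3′ end, and Cdc73 is covered in its 5′ part and bare over its last exon, with the nested gene B3galt2 drawn as a bar.

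Along the gene, the 3′ part was more covered than the 5′ part in 9 of the 10 members. Divided into 3 equal parts, all but Cdc73 were more covered in the 3′ part than in the 5′ part in both replicates, which compares with 85.0% of 7789 marked genes (those of 3 kb or more). The middle part was the most covered on average in Supt16 (96.8%, against 84.6% at the 3′ side), Ssrp1, Paf1, Ctr9 (95.1% against 86.7%) and Leo1 (92.1% against 80.2%), so the rise was not steady to the end. The gain from 5′ side to 3′ side was 65.6 ± 1.68 points in Paf1, 58.3 ± 8.38 in Ssrp1, 51.5 ± 4.50 in Rtf1, 49.8 ± 12.9 in Supt16, 43.6 ± 0.640 in Cdk9, 31.7 ± 6.87 in Supt6, 30.1 ± 9.11 in Supt5, 17.5 ± 1.58 in Ctr9 and 17.4 ± 3.46 in Leo1, and it was -41.6 ± 2.16 in Cdc73. The median gain of the members, 33.8 and 40.3 points, was close to that of the marked genes, 35.8 and 37.7 points. A reversed profile such as that of Cdc73 was found in 10.3% of marked genes of at least 3 kb. Among the 458 marked genes of at least 100 kb it was found in 75, or 16.4%.

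The mean profile of the members lay above that of the marked genes all along the body. The mean coverage of the first of 10 equal parts was 19.5% and 12.5% in the members and 13.6% and 11.3% in the marked genes (again those of 3 kb or more). In that first part the mean of the members leaned on Cdc73, which was covered to 55.2% and 49.1%. Ssrp1, Paf1, Leo1 and Cdk9 had no covered base there in either replicate. By the fourth part the members had reached 85.1% and 81.0%, while the marked genes stood at 54.4% and 51.04% and reached their highest mean, 71.5% and 70.1%, only in the ninth. In the last part the means were 85.7% and 84.2% against 68.9% and 67.3%. This is a description of means over 10 genes and was not tested.

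**Figure D3:**
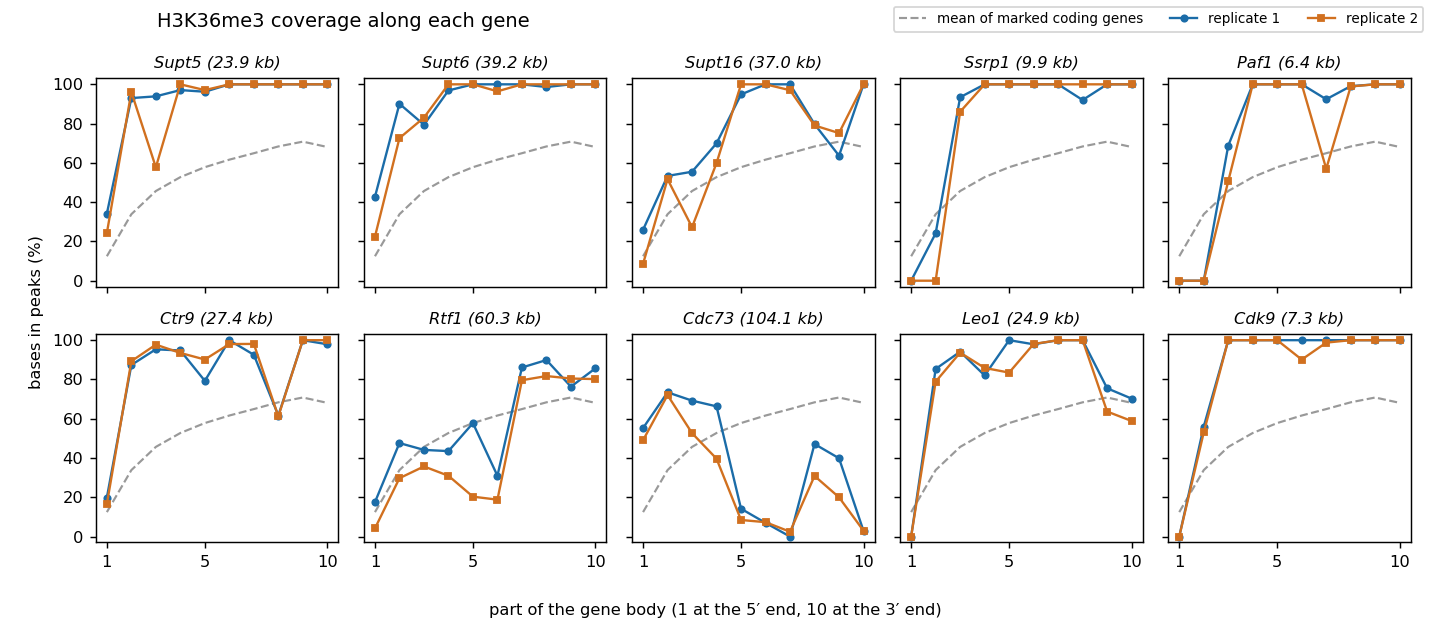
Covered share of 10 equal parts of each gene body, from the 5′ end (part 1) to the 3′ end (part 10), for replicate 1 (circles) and replicate 2 (squares), with the mean of the marked coding genes as a dashed line. Supt5, Supt6, Supt16, Ssrp1, Paf1, Ctr9, Leo1 and Cdk9 lie above the dashed line in the fourth part, Rtf1 in the last 4 parts, and Cdc73 has its highest value in the second part.

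At the starts themselves the 10 genes behaved alike. No base within 500 bp of the annotated start was covered in either replicate in any of the 10, which was also the case for 95.6% of marked genes of at least 3 kb and so is common to marked genes in general. The first covered base lay at a median of 1.95 and 2.305 kb in the members and 2.16 and 2.39 kb in the marked genes. The distance from start to mark was almost the same in both replicates in Supt5 (1.303 and 1.335 kb), Paf1, Ctr9, Leo1 (2.86 and 2.77 kb) and Cdk9. It differed by more in the others, most of all in Rtf1, at 2.17 and 4.83 kb, and in Cdc73, at 2.16 and 4.15 kb. At the 3′ end, the window of 500 bp to either side was wholly covered in both replicates in Supt5, Supt6, Supt16, Paf1 and Cdk9. It was covered to 94.8% and 90.9% in Leo1, 87.4% and 78.9% in Ssrp1, 84.2% and 75.8% in Rtf1 and 70.9% and 62.8% in Ctr9.

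The summit of the highest peak, the position of strongest enrichment, lay between 38.6% (Ssrp1) and 85.2% (Ctr9) of the way along the body in 8 of 10 members. It was at 24.2% in Leo1 and 9.70% in Cdc73 (replicate 1). In replicate 1 it lay in an exon only in Supt16, Paf1 and Ctr9. It lay in an intron in Supt5, Supt6, Ssrp1, Rtf1, Cdc73 and Leo1, and outside the reference transcript in Cdk9. In replicate 2 the highest summit within the body of Supt16, Paf1 and Ctr9 lay in an intron. That of Supt6 lay in exon 14 and that of Ssrp1 in exon 5 in replicate 2. The sequence around the replicate 1 summit is shown for 4 members, as examples of a summit on a coding exon (Supt16, Paf1 and Ctr9) and of one in an intron (Cdc73), again from RefSeq GRCm38.p6 on the strand of the gene, with exon bases of the reference transcript in capitals.
Supt16 summit, chr14:52173771-52173871, minus strand, exon 17: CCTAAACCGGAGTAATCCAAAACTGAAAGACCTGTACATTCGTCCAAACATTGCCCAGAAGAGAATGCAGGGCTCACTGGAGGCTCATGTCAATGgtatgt
Paf1 summit, chr7:28396621-28396721, plus strand, exon 10: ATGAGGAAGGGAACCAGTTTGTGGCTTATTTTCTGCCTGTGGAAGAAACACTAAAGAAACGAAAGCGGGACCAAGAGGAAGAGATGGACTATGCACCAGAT
Ctr9 summit, chr7:111052278-111052378, plus strand, exon 22: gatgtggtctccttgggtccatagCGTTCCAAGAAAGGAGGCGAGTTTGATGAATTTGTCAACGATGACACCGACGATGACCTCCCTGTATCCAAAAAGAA
Cdc73 summit, chr1:143692749-143692849, minus strand, intron 3: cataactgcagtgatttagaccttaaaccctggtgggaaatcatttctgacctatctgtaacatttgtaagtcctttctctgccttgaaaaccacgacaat

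In Supt16 this summit is 23.6 kb from the start and the peak has a fold of 14.4, and the highest summit of replicate 2, with a fold of 19.6, is 62 bp away. In Cdc73 the summit is 10.1 kb from the start with a fold of 8.74, and that of replicate 2, with a fold of 9.53, is 38 bp away. The summits of Cdk9 were 12 bp apart and those of Rtf1 105 bp apart. Only summits inside the gene body were compared. In other members these highest summits lay at different places in the replicates, by 927 bp in Paf1, 1940 bp in Ctr9 and 13908 bp in Leo1. The replicate 1 summit lay inside a peak of replicate 2 in all 10. In 8 of them replicate 2 peaks covered 69.9% to 87.5% of the body, which makes such an overlap likely. The same count over all marked genes was not made.

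Internal exons, a measure added after the values over all exons were seen, were more fully covered than introns when pooled over the members. The reference transcripts (the coding transcript with the longest coding sequence) of the 10 genes have 183 internal exons, that is, all but the first and last of each gene. Of these, 162 (88.5%) were covered over every base in both replicates, and 127 of 193 introns (65.8%) were. In the marked genes with 3 or more exons the figures were 69.8% of 78555 internal exons and 37.8% of 86222 introns. A short segment is wholly covered more readily than a long one, so shares of bases are given as well: 93.7% ± 1.08 of the bases of internal exons of the members were covered and 60.6% ± 5.03 of their intron bases, a ratio of 1.55 ± 0.111. In the marked genes the ratio was 1.82 ± 0.123. Without Cdc73 and Rtf1, the longest and least covered members, the ratio was 1.19 ± 0.0362.

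**Figure D4:**
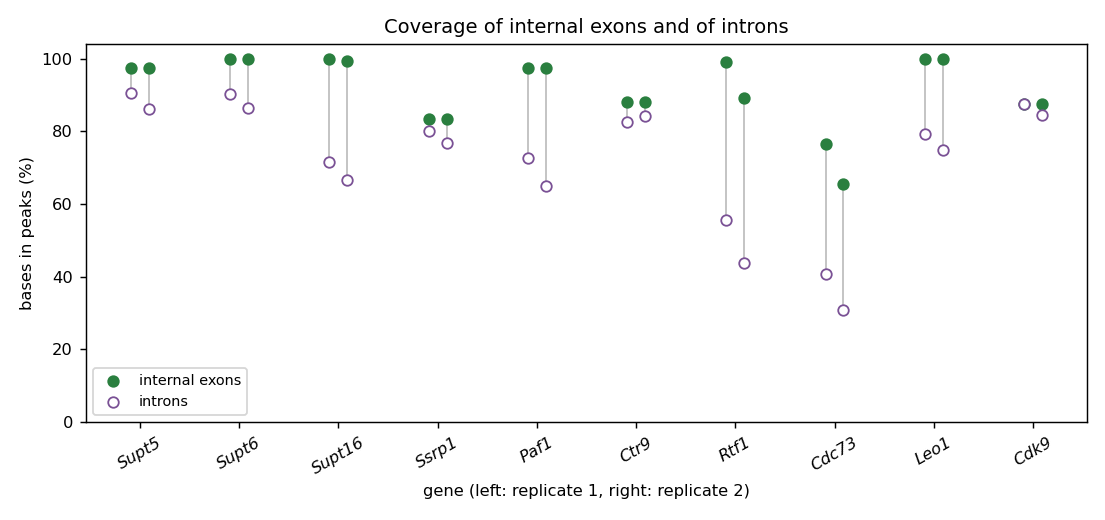
Percent of bases in peaks, on an axis from 0, for internal exons (filled circles) and introns (open circles) of each of the 10 genes, with replicate 1 at the left and replicate 2 at the right of each pair. The gap is widest in Rtf1 and Cdc73 and small in Ssrp1, Ctr9 and Cdk9.

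The widest separation was in Rtf1, where internal exons were covered to 99.1% and 89.2% and introns to 55.5% and 43.6%, and in Cdc73, with 76.5% and 65.5% against 40.8% and 30.9%. In Cdk9 the values were 87.6% and 87.6% for internal exons and 87.4% and 84.5% for introns, and in Ctr9 88.1% and 88.1% against 82.5% and 84.1%. Internal exons lie away from the start, where every member was uncovered, and position was not adjusted for. With exons of all transcripts merged and the first and last exons kept, the pooled ratio was 1.07 ± 0.0880 in the members and 1.55 ± 0.0872 in the marked genes. By that measure exons were more covered than introns in both replicates in 5 of the 10 members, compared with 67.2% of 8010 marked genes. Within the 3′ of 3 equal parts alone the merged ratio was 0.942 ± 0.0512. The bare last exon of Cdc73, of 9.76 kb, counts in the merged measure and not in the internal one.

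Other genes of elongation were mostly marked too, at lower levels. A list of 38 was used, with DSIF, NELF, P-TEFb and its inhibitors, the super elongation complex, elongin, TFIIS, and factors that act on the polymerase tail. Of these, 34 were marked and 24 were covered to at least 50% in each replicate, against 37.2% and 19.3% of all coding genes. The median covered share of the 38 was 64.2% and 60.2%. The highest were Nelfb (90.9% and 93.9%), a subunit of the pausing factor NELF, Ccnk (87.5% and 88.5%), the cyclin of CDK12 and CDK13, Wdr61 (83.7% and 83.3%), a further PAF1 complex subunit, and Ctdp1 (87.8% and 81.2%), a phosphatase of the polymerase tail. The lowest, which were also the 4 that were not marked, were Ell2 (8.68% and 9.27%) and Eaf2 (7.06% and 4.01%), of the ELL family and its partners, Tcea2 (35.0% and 5.69%), a TFIIS gene, and Mllt3, a super elongation complex gene with no covered base. Tcea2 differed between the replicates by more than any member did. Of the 34 marked genes, 32 were more covered in the 3′ than in the 5′ of 3 equal parts in both replicates. The same held for 85.0% of all marked genes of at least 3 kb. Cdk12, a kinase of the polymerase tail named here after its values were seen, was the 1 gene with the reverse in both, at -33.9 and -24.9 points, the same sign as Cdc73. Setd2, the gene of the H3K36 methyltransferase and likewise named after its values were seen, was covered to 62.8% and 53.0%.

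The genes most like the mean profile of the members, by Euclidean distance over 20 values (10 parts in 2 replicates) among 19485 coding genes of at least 3 kb outside both lists, were Smarcc1 at 38.8, Kat14 at 42.2 and Nampt at 43.1 (in percentage points of coverage). Smarcc1, a subunit of the BAF chromatin remodeller, was covered to 80.5% and 77.5% over 122 kb, which is longer than Cdc73. Kat14 was covered to 74.96% and 71.5% and Nampt to 78.0% and 74.5%. The members themselves lay at 72.8 (Cdk9) to 136 (Rtf1) from their own mean, and Cdc73 at 255.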

How the data were processed

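H3K36me3 ChIP-seq peak sets were deposited for 2 replicates, which come from separate biosamples per the labels and form 1 group. The files are peak lists on mm10, called by the authors for each replicate with support from pseudoreplicates. Each deposited peak has a fold enrichment (a ratio over background) and p-values and q-values as −log10, per the values in the files, and a deposited summit offset. These are the authors' own values. Read depth, read length, aligner and caller are not named by any source used here, so precision per peak is unknown and no intervals are given. A peak set on mm9 was not used.

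Gene bodies came from GENCODE M21. Chromosomes 1 to 19, X and Y were used, and 27 further records of repeated coding symbols were left out. Coverage was computed in Python 3.11.15 with numpy 2.4.6, and figures were drawn with matplotlib 3.10.9. The procedure was tested on simulated data. Domains joined peaks within 3 kb, and flanks were 5 kb. The reference, C57BL/6J, is another strain than the cells, which can lower coverage where the strains differ.

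All 10 genes are named. Of the 38 other elongation genes, the 4 highest and 4 lowest by the lower replicate are named, with coding neighbours within 5 kb that a value rests on, and the 3 nearest profiles. The members and lists were chosen with earlier results of these data known. Alternatives were other deposited peak sets, a −log10 q of at least 5, leaving out a replicate, other thresholds, non-overlapping bases and single transcripts.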

Additional observations from a re-analysis of the deposited data

How the results depend on the processing

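All 10 genes stayed marked under every alternative run except a threshold of 50% of the gene body, which 8 met. The median covered share, 79.1% ± 2.34, was 82.9% in the authors' replicated set and 82.9% in the pooled set, and between 77.4% and 80.7% with 1 replicate. The median gain from the 5′ to the 3′ of 3 equal parts, 37.1 ± 4.64 points, was 32.4 in the unthresholded sets, 29.3 in the replicated set, 28.3 in the pooled set and 49.4 between the first and last of 5 parts. The pooled ratio of exons to introns over merged exons, 1.07, turned below 1 in the pooled set (0.972), in the replicated set (0.984) and in the 3′ of 3 parts (0.942). It was 1.55 for internal exons of the reference transcript, an alternative chosen after the data were seen, and 1.09 over merged exons without Cdc73 and Rtf1, also chosen after. The cause was not tested. Of 80 values for single members, 57 moved by less than 1 SD and none by over 1.5 times, with ratios from 0.864 to 1.26. Leaving out 1 of 2 replicates always moves a mean by less than 1 SD, so those values could not count as moved. In the replicated and pooled sets every member except Paf1 moved by over 1 SD, each time upward. With 2 replicates an SD is itself uncertain, peak calls without read counts cannot tell weak from missing signal, and the unthresholded sets also change the alignment. No paired analysis was possible because the series has only 1 group.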

Other observations

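Neighbours of the elongation genes can pass the 10% threshold on bases next to a member. Rpgrip1, which was marked at 11.1% and 11.6%, had 90.3% and 86.8% of its covered bases within 5 kb of Supt16 or inside it, and outside the shared bases it was covered to 5.48% and 6.07%. Proca1, which ends beside the 3′ end of Supt6 at a distance of 982 bp, was marked at 26.3% and 22.8%, with 98.1% of its covered bases in replicate 1 and all of them in replicate 2 within 5 kb of Supt6. The peaks carry no strand, so the gene of origin of these bases cannot be told apart. Chd8, a chromatin remodeller gene 734 bp upstream of Supt16, was covered to 64.5% and 62.5% with 9.78% and 8.44% of its covered bases within 5 kb of Supt16.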
